A study of Mus musculus with 8 samples.

Results

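Antigen presentation by major histocompatibility complex (MHC) class II was followed through 9 genes: H2-Aa, H2-Ab1 and H2-Eb1, which encode chains of the class II molecules, Cd74, the invariant chain, H2-DMa and H2-DMb1, the chains of the peptide-loading molecule H2-DM, Ciita, the class II transactivator, and Cd86 and Cd83, which are surface proteins of activated antigen-presenting cells. They were taken by symbol for these roles from the 34866 genes of the deposited table. Of these, 12480 genes passed the filter on low counts and were tested, among them 9 of the 9 class II genes. No class II gene passed the threshold for a difference between the genotypes. The libraries of the genotypes overlapped for each of the 9, and H2-Aa, H2-Ab1 and Cd74 varied together from library to library.

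The RNA came from epididymal white adipose tissue, the visceral fat beside the epididymis, of male mice. The 4 control libraries had the genotype Aromatase flox/flox, in which the aromatase gene Cyp19a1 is flanked by loxP sites, and the 4 knockout libraries had that floxed gene together with aP2-Cre. The aP2-Cre transgene takes its promoter from the fatty-acid binding protein gene Fabp4, which is active in fat cells and is also known to be active in macrophages, a class II cell type. No group with aP2-Cre but without the floxed gene is analysed here, and effects of the transgene and of the deletion cannot be told apart. Age and strain are not given in the labels used here.

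Class II molecules carry peptides from the endosomes to the cell surface and show them to CD4 T cells. The alpha and beta chains assemble around the invariant chain, proteases trim that chain down to a short peptide held in the groove, and H2-DM exchanges it for an antigen peptide. Dendritic cells, macrophages and B cells are the classical class II cells, and in fat most of them lie in the stroma between the adipocytes, although adipocytes have been described to make class II molecules too. Transcription of the chains, the invariant chain and H2-DM depends on CIITA, which does not bind DNA itself but is recruited by factors bound to a pair of promoter elements, the X box (bound by RFX) and the Y box (bound by NF-Y).

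The promoters of 4 class II members are in the RefSeq promoter table used here (GRCm38.p6, 250 bases before to 50 after each start), namely those of H2-Aa, H2-Eb1, H2-DMa and H2-DMb1. H2-Ab1, Cd74, Ciita, Cd86 and Cd83 had no entry. The stretches around the X and Y motifs are shown for the chain genes H2-Aa and H2-Eb1 and, for comparison, for H2-Ob, a chain of the H2-DM inhibitor H2-DO. Each runs 5′ to 3′ on the strand of its gene, with the X motif first and the Y motif second in capitals. H2-Aa lies at chr17:34287852-34287922 on the minus strand, H2-Eb1 at chr17:34305758-34305827 and H2-Ob at chr17:34238800-34238867, both on the plus strand.
H2-Aa: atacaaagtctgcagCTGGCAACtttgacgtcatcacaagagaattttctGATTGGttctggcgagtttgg
H2-Eb1: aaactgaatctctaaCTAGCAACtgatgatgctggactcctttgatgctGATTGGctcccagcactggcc
H2-Ob: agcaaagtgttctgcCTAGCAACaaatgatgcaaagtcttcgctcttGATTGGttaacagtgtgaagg

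The motifs searched, on both strands, were CTNGNAAC for X and GATTGG for Y, which do not overlap each other. The letters and the allowed distance were chosen with these promoters in view, so the matches are a description. X was found in 13.153% and Y in 16.109% of the 32851 windows of the table. An X followed by a Y on the same strand after 10 to 30 bases was found in 34 windows, 0.103% of them, which belong to 32 genes. Class II genes made up 4 of the 32: H2-Aa, H2-Eb1, H2-DMb1 and H2-Ob, with 27, 26, 27 and 24 bases between the motifs. X began 84 bases before the start site in H2-Aa, 94 in H2-Eb1, 97 in H2-DMb1 and 90 in H2-Ob. For H2-DMb1 the 2 annotations differ: the RefSeq start used for this distance lies within the GENCODE gene, which begins before the X motif, so its stretch overlaps an annotated exon and is not shown. The 2 H2-DMa windows held no such pair. Of the 32 genes, 19 were tested between the genotypes, 16 of them outside the class II members. The threshold in edgeR's test was passed by 0 of the 19, against 0.168% of all genes tested. At so low a share, 0 calls among 19 genes cannot tell genes with this pair from the others.

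Values are given as CPM, the estimated count divided by the scaled library total and brought to a common size, and a difference as the log2 fold change, knockout minus control, with its standard error (SE) from edgeR's quasi-likelihood fit over all 12480 genes. The threshold was an adjusted p of 0.05. Library totals ranged from 1538427 to 3053565 estimated counts, so that a count of 0 allows up to 3 counts, which is 0.984 to 1.92 CPM. Over all genes, 21 passed, 15 higher and 6 lower in the knockout libraries. Genes encoded in the mitochondrial genome took 10.7 to 12.4% of the counts in controls and 8.70 to 10.1% in knockouts, and the part of that difference in the results was not tested. Cyp19a1 had 0 to 5.017 estimated counts in any library and was not tested, so the deletion could not be checked. The 12 adipocyte markers were all tested and summed to 61466 to 79779 CPM in controls and 51713 to 76423 CPM in knockouts. Of the 12, 10 lay lower in the knockout libraries (median log2 fold change -0.14), against 6276 of all 12480 genes tested. In edgeR's test 0 passed and 2 had an unadjusted p under 0.05, against 6.39% of all genes. Retn, the adipocyte hormone resistin, was lower without overlap, as were 217 of the 12480 genes. Its log2 fold change was -0.65 (edgeR adjusted p = 0.0731). The part of the adipocyte markers in the class II values was not tested. Of 6 epididymis markers, 4, Crisp1, Lcn5, Lcn8 and Defb20, were at 0 in all 8 libraries, and Spint4 had 0 or 1 count. Adam7 had 22 counts (8.53 CPM) in knockout replicate 3, 9 counts (3.77 CPM) in control replicate 2 and 0 or 1 count in the others.

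Of the 9 members, 0 had an adjusted p under 0.05 in edgeR's quasi-likelihood test, against 0.168% of all genes tested (0.12% higher in the knockout libraries), and 0 passed with DESeq2 or limma-voom. An unadjusted p under 0.05 was reached by 0 members with edgeR and DESeq2 and by 1 with limma-voom, against 6.39% of all genes with edgeR. With edgeR it was reached by 2 members without control replicate 4 or without knockout replicate 1. The 4 control and 4 knockout libraries overlapped for each of the 9, whereas 4.21% of all genes did not overlap. The fitted difference was above 0 for 9 of 9 members, against 49.7% of all genes, and the median log2 fold change was 0.22, against -0.00 over all genes. The direction depended on single libraries. Knockout replicate 4 was the highest library for 7 of the 9 members, and without it the median was 0.02 and 5 of 9 lay above 0. Without control replicate 1 the median was 0.15 and 6 of 9 lay above 0, and 8 of 9 did without control replicate 4 or without knockout replicate 2. Knockout replicate 4 was also the largest library, with 3053565 estimated counts. Control replicate 1, at 3045488, was the highest library for 0 members and the lowest for 3. The part of library size was not tested. The 9 genes are measured in the same 8 libraries and several moved together, so they are not 9 separate observations. With limma-voom 7 of 9 lay above 0, H2-Aa and H2-Ab1 being at -0.00 and -0.05.

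**Figure D1:**
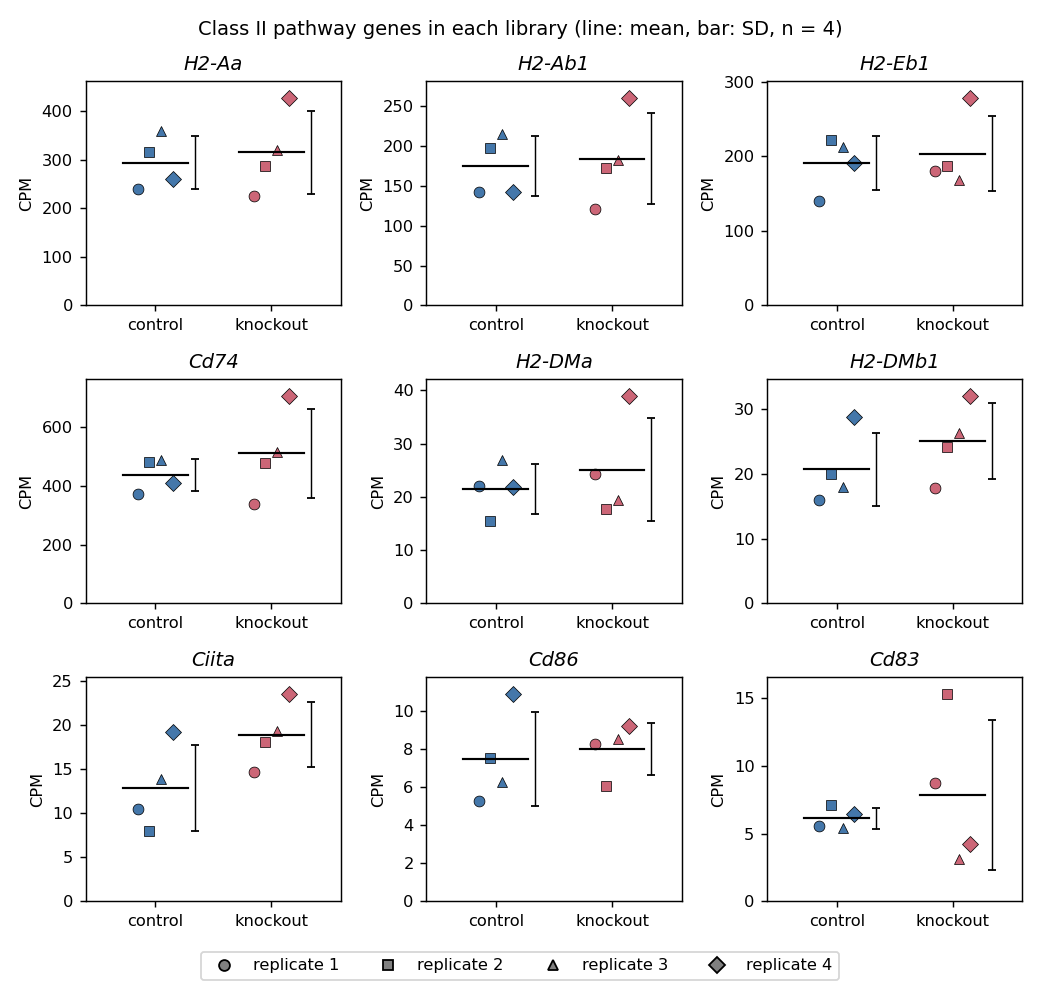
CPM of each class II member in the 4 control and the 4 knockout libraries, with a marker shape for each replicate, a line at the mean and a bar of 1 SD beside it (n = 4 each). The genotypes overlap in every panel, and knockout replicate 4 is the highest library in 7 of the 9.

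The chain genes were at nearly equal mean levels in the genotypes. H2-Aa, the A alpha chain (chromosome 17, 34282744 to 34287823, GRCm38), was at 239.7, 315, 359.7 and 261 CPM in control replicates 1 to 4 and at 224, 286, 321 and 428 CPM in knockout replicates 1 to 4. The lowest and the highest of the 8 were both knockout libraries, and the other 2 knockout libraries lay within the control range. Means were 294 ± 54.2 CPM for controls and 315 ± 85.1 CPM for knockouts (SD, n = 4). The edgeR log2 fold change was 0.10 (SE 0.188, adjusted p = 0.967), a 1.07-fold difference with a 95% interval of 0.808 to 1.42.

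H2-Ab1, the A beta chain that pairs with H2-Aa (chromosome 17, 34257689 to 34269419), was at 143, 197, 215 and 142 CPM in the controls and at 121, 172, 182 and 260.4 CPM in the knockout libraries. The order of the knockout libraries was that of H2-Aa, with replicate 1 lowest and replicate 4 highest. Means were 174 ± 37.6 and 184 ± 57.5 CPM (SD, n = 4), with an edgeR log2 fold change of 0.08 (SE 0.225, adjusted p = 0.982) and a fold interval of 0.747 to 1.49.

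H2-Eb1, the E beta chain (chromosome 17, 34305867 to 34316674), was at 139, 222, 212 and 190.4 CPM in the controls and at 179.5, 187, 168 and 278 CPM in the knockouts. Control replicate 1 was the lowest of the 8 and knockout replicate 4 again the highest, with the other 6 between 168 and 222 CPM. Means were 191 ± 36.8 and 203 ± 50.6 CPM (SD, n = 4), an edgeR log2 fold change of 0.09 (SE 0.18, adjusted p = 0.968) with a fold interval of 0.814 to 1.40. Without knockout replicate 4 the log2 fold changes of H2-Aa, H2-Ab1 and H2-Eb1 were -0.08, -0.14 and -0.10, each on the other side of 0. H2-Ab1 and H2-Eb1 also turned without control replicate 1, to -0.01 and -0.03, and H2-Ab1 without control replicate 4, to -0.0035. A change of these 3 genes by 1.5-fold in either direction lies outside all 3 intervals.

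Cd74, the invariant chain that fills the groove of new class II molecules and guides them to the endosomes (chromosome 18, 60803848 to 60812652), was at 375, 481, 489 and 412 CPM in the control libraries. In the knockout libraries it was at 340.2, 479, 517 and 709 CPM. Knockout replicates 2 and 3 lay close to the upper control libraries, and replicate 4 stood above all others. Means were 439 ± 55.0 and 511 ± 152 CPM (SD, n = 4), with an edgeR log2 fold change of 0.22 (SE 0.188, adjusted p = 0.923) and a fold interval of 0.878 to 1.55. Without knockout replicate 4 the log2 fold change was 0.02.

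The peptide-loading genes were measured at lower counts, 34 to 119 per library for H2-DMa and 39.1 to 98.2 for H2-DMb1. H2-DMa, the alpha chain of H2-DM (chromosome 17, 34119541 to 34139101), was at 22.0, 15.5, 26.9 and 21.8 CPM in the controls and at 24.3, 17.8, 19.4 and 39.0 CPM in the knockouts. Only knockout replicate 4 lay above the control range. The edgeR log2 fold change was 0.23 (SE 0.26, adjusted p = 0.941), with a fold interval of 0.799 to 1.73. Without knockout replicate 4 it was -0.08. Exons of H2-DMa overlap those of Brd2 on the opposite strand, and the use of strand in the counting is not given in the sources used here. Brd2, a chromatin reader gene, had a log2 fold change of -0.06 (edgeR adjusted p = 0.970).

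H2-DMb1, a beta chain of H2-DM (chromosome 17, 34153072 to 34160230), was at 16.1, 20.1, 17.9 and 28.8 CPM in the controls and at 17.9, 24.2, 26.4 and 32.1 CPM in the knockouts. Control replicate 4 lay among the upper knockout libraries and knockout replicate 1 among the lower control libraries. The edgeR log2 fold change was 0.31 (SE 0.231, adjusted p = 0.914), with a fold interval of 0.881 to 1.75. H2-DMb1 shares 517 of its 1648 words of 31 bases (31.4%) with the neighbouring copy H2-DMb2, and how reads were split between both copies is uncertain. H2-DMb2 averaged 9.65 ± 5.82 CPM in controls and 8.12 ± 2.15 CPM in knockouts (SD, n = 4), with an edgeR log2 fold change of -0.26 (adjusted p = 0.958).

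The sum of both beta chain copies does not depend on that division. It was 19.9, 31.4, 35.0 and 35.3 CPM in the control libraries and 27.0, 31.5, 36.8 and 37.7 CPM in the knockout libraries, with overlap between the genotypes. Fitted as 1 gene, a choice made after seeing the data, the pair had a log2 fold change of 0.17 with edgeR, against 0.31 for H2-DMb1.

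Ciita, the transactivator on which class II transcription depends (chromosome 16, 10480059 to 10528418), had the largest fitted difference of the 9 members. It was at 10.5, 7.95, 13.9 and 19.2 CPM in the control libraries, which are 30, 19, 31 and 30 counts. In the knockout libraries it was at 14.7, 18.2, 19.4 and 23.6 CPM, which are 32, 45, 50 and 72 counts. All 4 knockout libraries lay above the control mean, but control replicate 4, the smallest library, lay above knockout replicates 1 and 2. Means were 12.9 ± 4.88 and 19.0 ± 3.70 CPM (SD, n = 4).

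The edgeR log2 fold change of Ciita was 0.59 (SE 0.278), a 1.51-fold difference with an interval of 0.999 to 2.28. The unadjusted p was 0.0506 and the adjusted p 0.775 in edgeR's test, the smallest of the 9 members. Leaving out 1 library at a time gave log2 fold changes from 0.42, without control replicate 2, to 0.82, without control replicate 4, and edgeR adjusted p-values from 0.469 to 0.977. Exons of Ciita overlap those of Dexi on the opposite strand. Dexi averaged 15.3 ± 4.11 CPM in controls and 12.3 ± 4.18 CPM in knockouts (SD, n = 4), with an edgeR log2 fold change of -0.32 (adjusted p = 0.935).

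Cd86, the B7 family ligand of CD28 and CTLA-4 (chromosome 16, 36603869 to 36666081), was close to the low end of what these libraries resolve, with 14 to 28 counts per library. It was at 5.24, 7.53, 6.28 and 10.9 CPM in the controls and at 8.24, 6.05, 8.53 and 9.18 CPM in the knockouts. All 4 knockout libraries lay within the control range. The edgeR log2 fold change was 0.13 (SE 0.338, adjusted p = 0.982), with a fold interval of 0.662 to 1.81, and without control replicate 1 it was -0.02.

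Cd83, a surface protein that keeps class II and CD86 on the cell surface (chromosome 13, 43784775 to 43803132), was at 5.59, 7.11, 5.38 and 6.41 CPM in the controls and at 8.70, 15.3, 3.103 and 4.26 CPM in the knockout libraries. The control libraries lay close together, whereas knockout replicates 1 and 2 were above and knockout replicates 3 and 4 below all of them. Means were 6.12 ± 0.795 and 7.85 ± 5.54 CPM (SD, n = 4). The edgeR log2 fold change was 0.35 (SE 0.462, adjusted p = 0.949), and without knockout replicate 2 it was -0.21. Cd83 was the lowest in knockout replicate 3, at 8 counts.

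**Figure D2:**
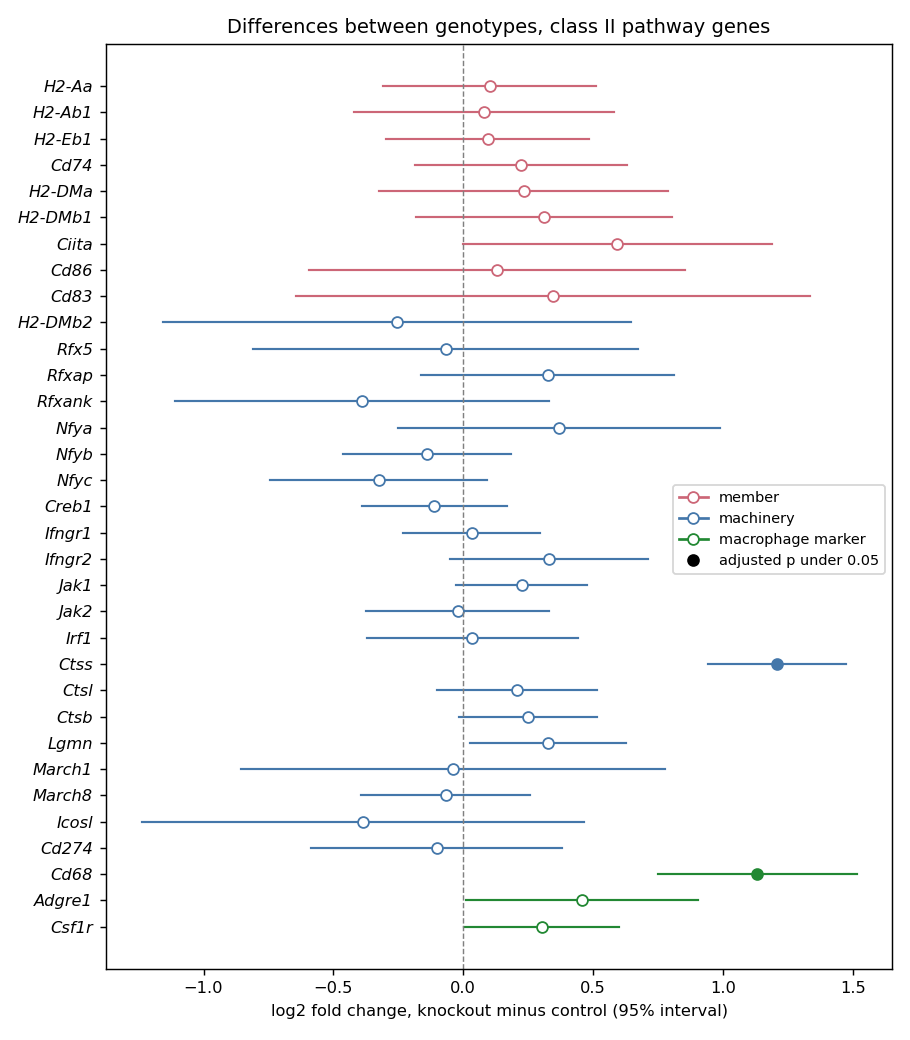
Log2 fold change, knockout minus control, with its 95% interval for the 9 members, 21 of the 22 tested machinery genes and 3 macrophage markers. A filled point marks an adjusted p under 0.05, which only Ctss and Cd68 have, and the interval of each member reaches 0 or below.

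The wider machinery was described by a list of 32 genes, of which 30 were matched in the table and 22 were tested. Of the 22, 10 lay higher and 12 lower in the knockout libraries, with a median log2 fold change of -0.03, and with library totals in place of TMM factors 14 lay higher. Ctss was the only one past the threshold in edgeR's test (1 of 22, against 0.168% of all genes). An unadjusted p under 0.05 was reached by 2 of the 22, Ctss and Lgmn, against 6.39% of all genes. Apart from H2-DMb2, the other class II chains did not pass the low-count filter. H2-Ea-ps, the annotated pseudogene of the E alpha chain, was at 0 in all 8 libraries, H2-Eb2 had 0 to 2 counts, and the H2-DO chains H2-Oa and H2-Ob had 0 to 8 and 1 to 13 counts.

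The factors that bind the class II promoters did not pass. Of Rfx5, Rfxap, Rfxank, Nfya, Nfyb, Nfyc and Creb1, 2 lay higher and 5 lower, the smallest edgeR adjusted p was 0.877, and the median log2 fold change was -0.11. Of the genes that carry the interferon gamma signal to Ciita, 6 of 7 were tested, with 4 higher, 2 lower and a smallest edgeR adjusted p of 0.816. Ifng itself had 0 or 1 count in each library. Its receptor genes Ifngr1 and Ifngr2 had log2 fold changes of 0.03 and 0.33, and Irf1, a transcription factor that acts after the receptor, had 0.03.

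Of the endosomal proteases, 4 of 4 tested lay higher in the knockout libraries, against 49.7% of all genes. Their median log2 fold change was 0.29, and only Ctss passed the threshold. Ctss, the protease that completes the removal of the invariant chain in class II cells, was at 63.5 to 70.4 CPM in the controls and at 135, 143, 160 and 187 CPM in the knockouts. No knockout library overlapped the controls (2.48% of all genes were higher without overlap). The log2 fold change of Ctss was 1.21 (SE 0.124, edgeR adjusted p = 0.000666), while that of Cd74, its substrate, was 0.22.

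Lgmn, an asparaginyl endopeptidase that makes an early cut in the invariant chain, was at 74.8, 70.7, 90.6 and 67.3 CPM in the controls and at 90.7, 115, 78.7 and 96.7 CPM in the knockouts. Knockout replicate 3 lay below control replicate 3, so the genotypes overlapped. The log2 fold change was 0.33 with an unadjusted p of 0.035 and an adjusted p of 0.731 in edgeR's test. The libraries of Ctsb, another endosomal protease, did not overlap between the genotypes, at a log2 fold change of 0.25 (edgeR adjusted p = 0.812), and Ctsl, a related protease, was at 0.21 (edgeR adjusted p = 0.910). Ifi30, a thiol reductase of the endosome, was not analysed here.

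The ligases March1 and March8, which tag class II molecules and CD86 for breakdown, had log2 fold changes of -0.04 and -0.07 (edgeR adjusted p = 0.996 and 0.979). Of 5 other costimulators and coinhibitory ligands, Icosl and Cd274 were tested and had log2 fold changes of -0.39 and -0.10 (edgeR adjusted p = 0.939 and 0.977). Cd80, the partner of Cd86, had 0 or 1 count in each library, and Cd40, the receptor through which T cells activate antigen-presenting cells, was at 1.92 to 4.27 CPM and was not tested.

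Markers of the cell types that carry class II were read in the same libraries. Of 14 macrophage markers, 13 were tested and 10 lay higher in the knockout libraries, with a median log2 fold change of 0.31 and a summed level of 767 to 864 CPM in controls and 839 to 1165 CPM in knockouts. An unadjusted p under 0.05 was reached by 7 of the 13 in edgeR's test (6.39% of all genes), and 4 of them, Adgre1, Csf1r, Cd68 and Itgam, were higher without overlap (2.48% of all genes). The 3 that lay lower were Mertk, Cd163 and Lyve1, at log2 fold changes of -0.06, -0.19 and -0.08. Mrc1, another receptor gene of the list, lay higher, at 0.31. Cd68, an endosomal glycoprotein of macrophages, was the only one of the 13 past the threshold. Its mean rose from 36.3 ± 10.1 CPM to 80.6 ± 10.8 CPM (SD, n = 4), an edgeR log2 fold change of 1.13 (adjusted p = 0.0156). The call was lost without control replicate 2, control replicate 3, knockout replicate 1 or knockout replicate 2, with edgeR adjusted p-values of 0.0786, 0.1001, 0.0621 and 0.0984 and log2 fold changes of 1.01, 1.16, 1.17 and 1.04. The lowest knockout value of Cd68, 73.5 CPM, lay above the highest control value, 49.6 CPM, while the class II genes overlapped. The part of the macrophage markers in the class II values was not tested.

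Of 12 dendritic cell markers, 9 were tested and 8 lay higher, against 49.7% of all genes. In edgeR's test 0 passed and 1, Itgax, had an unadjusted p under 0.05 (6.39% of all genes). Batf3, at 3 to 22 counts per library, and Itgax, at 3 to 52, were higher without overlap (2.48% of all genes). The 12 dendritic cell markers summed to 103 to 134 CPM in controls and 122 to 166 CPM in knockouts. Of 12 B cell markers, 4 were tested, and 0 passed or had an unadjusted p under 0.05 in edgeR's test. Cd22, Cd37 and Bank1 lay higher, at log2 fold changes of 0.20, 0.37 and 0.17. Ighm, the immunoglobulin heavy chain gene, lay lower, at -0.26. The B cell list summed to 421 to 1022 CPM in controls and 331 to 850 CPM in knockouts, nearly all of it from Ighm. That gene was highest in control replicate 3 and lowest in knockout replicate 1. The B cell factor gene Pax5 had 0 to 3 counts. Of 12 T and NK cell markers 1 was tested, and Foxp3, the factor of regulatory T cells, was at 0 in all libraries. The part of these cell types in the class II values was not tested either, and in whole tissue fewer cells of a type and less RNA per cell cannot be told apart.

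Ratios of 2 genes within a library do not depend on how libraries are scaled. The 8 ratios examined were compared with two-sided exact permutation tests, whose smallest possible p at this size is 0.0286, and adjusted over the 8. H2-Aa to H2-Ab1, the chains that pair with each other, gave a ratio of counts between 1.59 and 1.85 over all 8 libraries, although H2-Ab1 itself ranged from 121 to 260.4 CPM. Geometric mean ratios were 1.69 for controls and 1.73 for knockouts (exact permutation p = 0.686, adjusted p = 0.829). H2-Eb1 to H2-Ab1 varied more, from 0.925 to 1.48, with geometric means of 1.10 and 1.12 (exact permutation p = 0.829, adjusted p = 0.829).

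Cd74 to H2-Ab1 was 2.63, 2.43, 2.27 and 2.89 in the controls and 2.80, 2.78, 2.84 and 2.72 in the knockouts. The knockout libraries lay close together, above 3 of the 4 control libraries and below control replicate 4. Geometric means were 2.55 and 2.79 (exact permutation p = 0.171, adjusted p = 0.457). H2-DMb1 to H2-DMa ranged from 0.663 to 1.36 (exact permutation p = 0.514, adjusted p = 0.829), with geometric means of 0.947 and 1.03. H2-DMa to H2-Ab1 and Cd86 to H2-Ab1 had exact permutation p-values of 0.714 and 0.8, both with an adjusted p of 0.829.

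H2-Ab1 was also set against Cd68 and Adgre1, 2 macrophage genes that both lay higher in the knockout libraries, and neither ratio passed the test. H2-Ab1 to Cd68 was 2.87, 7.11, 5.55 and 4.78 in the controls and 1.64, 1.78, 2.31 and 3.54 in the knockouts. Control replicate 1 lay below knockout replicate 4, and the other 3 control libraries lay above all knockout libraries. Geometric means were 4.82 for controls and 2.21 for knockouts, a log2 difference of -1.12 (exact permutation p = 0.0571, adjusted p = 0.457). Cd68 was chosen for this ratio with its rise known, so the lower ratio is no separate result. H2-Ab1 to Adgre1, a macrophage surface receptor, had geometric means of 8.79 and 6.39 (exact permutation p = 0.114, adjusted p = 0.457). Adgre1 itself lay higher in the knockout libraries, at a log2 fold change of 0.46, so this lower ratio is no separate result either.

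**Figure D3:**
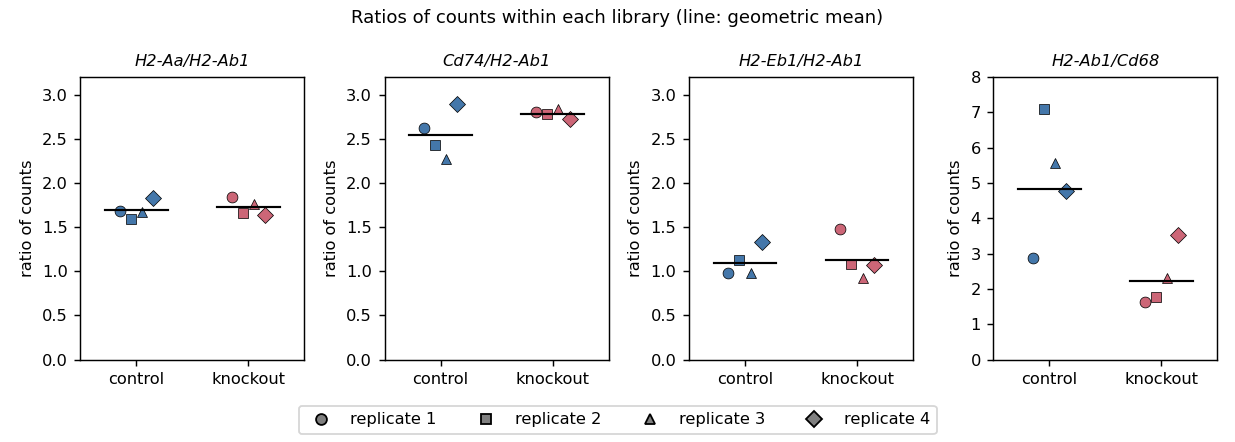
Ratio of the counts of 2 genes in each control and knockout library, with a marker shape for each replicate and a line at the geometric mean. H2-Aa to H2-Ab1 stays between 1.59 and 1.85 in all 8 libraries, while H2-Ab1 to Cd68 runs from 1.64 to 7.11.

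Across the 8 libraries, 12 relations of log2 CPM with H2-Ab1 were computed, with exact permutation p-values adjusted over the 12. H2-Aa followed H2-Ab1 with a Pearson r of 0.985 (exact permutation p = 9.92e-05, adjusted p = 0.00119) and a Spearman rho of 0.952 (exact permutation p = 0.00114, adjusted p = 0.0137). Cd74 followed it with r = 0.942 (exact permutation p = 0.000744, adjusted p = 0.00446) and rho = 0.905 (exact permutation p = 0.00456, adjusted p = 0.0274). Without the libraries farthest from the median of H2-Ab1, knockout replicates 1 and 4, r was 0.961 for H2-Aa and 0.831 for Cd74 (n = 6). With each genotype's mean taken out, r was 0.987 and 0.966. All genes of a library share its depth and composition.

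H2-Eb1 had r = 0.765 (exact permutation p = 0.0263, adjusted p = 0.105) and rho = 0.667 (exact permutation p = 0.0831, adjusted p = 0.332), which did not pass. Ciita, the shared activator of these genes, had r = 0.205 with H2-Ab1 (exact permutation p = 0.623, adjusted p = 0.831), a rho of 0.143 (exact permutation p = 0.752, adjusted p = 0.902), and r = -0.22 without the 2 farthest libraries. Among the 4 knockout libraries Ciita and H2-DMb1 had the order of H2-Ab1, with replicate 1 lowest and replicate 4 highest, whereas control replicate 4 was the highest control library for both and the lowest for H2-Ab1. With 4 libraries per genotype no relation within a genotype was tested. The r was 0.393 for H2-DMa, 0.425 for H2-DMb1, 0.0302 for Cd86 and -0.37 for Cd83, and 0.00617 for Cd68, 0.490 for Adgre1, 0.0542 for Itgax, a dendritic cell and macrophage integrin, and -0.60 for the adipocyte gene Adipoq. None of these 8 passed (smallest adjusted exact permutation p = 0.347). Their rho lay between -0.55 and 0.405 (smallest adjusted exact permutation p = 0.410). Ciita was measured at 19 to 72 counts and Cd86 at 14 to 28, and the part of counting error in these values was not tested. Flt3, Cd79a and Cd3e, planned as further partners, did not pass the low-count filter.

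**Figure D4:**
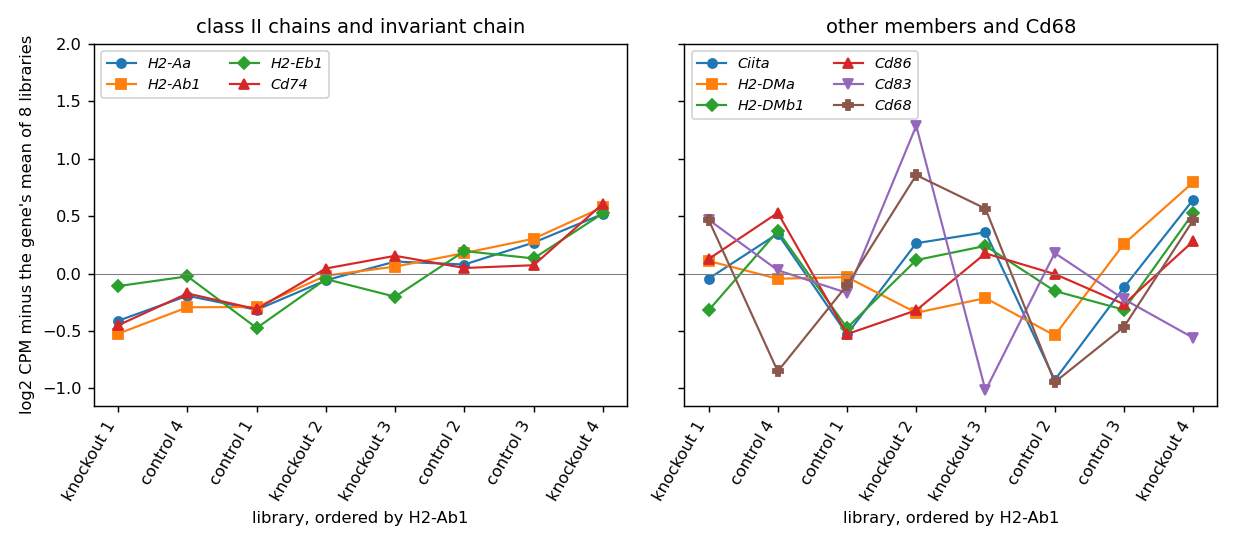
Log2 CPM of each gene minus its mean over the 8 libraries, which are ordered by their H2-Ab1 level. H2-Aa, H2-Ab1 and Cd74 climb together from knockout replicate 1 to knockout replicate 4 (r of 0.985 and 0.942 with H2-Ab1), H2-Eb1 less closely. Ciita and H2-DMb1 keep that order among the knockout libraries but not among the controls, and H2-DMa, Cd86, Cd83 and the macrophage gene Cd68 keep it in neither.

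The genes most like the mean log2 CPM of H2-Aa, H2-Ab1, H2-Eb1 and Cd74 over the 8 libraries were sought among all 12480 tested. Outside the lists, the 5 with the highest Pearson r were Mrc2 (0.973), Trnt1 (0.970), Popdc2 (0.963), Xpnpep1 (0.954) and Rhbdf1 (0.953). With 8 libraries, 32 genes had an r above 0.9 and 24 an r below -0.9, so values of this size are reached in both directions and are given with no test. Mrc2, a collagen receptor, was at 6.64, 20.5, 26.0 and 8.98 CPM in the controls and at 8.24, 14.1, 12.02 and 54.4 CPM in the knockouts. Knockout replicate 4 was the highest library for each of the 5, as it was for the 4 class II genes. The 5 were chosen for their likeness to those genes, so the shared highest library is no separate result. The fitted log2 fold changes of the 5 lay between -0.00 and 0.54, and none passed in edgeR's test.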

How the data were processed

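RNA from epididymal adipose tissue was made into 3′-end libraries by BRB-seq, with oligo-dT priming and Tn5 tagmentation, per the labels' protocols. The values deposited are estimated counts per gene, not normalized by the authors: 59.56% of the 142154 values above 0 are whole. Salmon and GRCm38 are named in the submitters' processing notes. Versions, annotation, strand setting and use of molecular identifiers are not given in the sources used here. Raw counts had been assumed when the tests were planned, and the estimated counts were rounded to whole numbers for them.

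Genes were matched without version to GENCODE M21 of GRCm38 (34652 of 34866), which gives the coordinates. The genotype test was that of edgeR 4.0.16, run in R 4.3.3 (robust quasi-likelihood F test, genotype as the only term, TMM factors, filterByExpr) with Benjamini-Hochberg adjustment over 12480 genes. The SE is the log2 fold change divided by the square root of F, and intervals (95%) use the fit's degrees of freedom. CPM used TMM-scaled totals, and ratios added 0.5 to each count. Exact permutation tests enumerated all assignments or pairings in Python 3.11.15 with numpy 2.4.6. They ran on ratios and, with a prior count of 2, on log2 CPM, and were adjusted with scipy 1.17.1. Floors and intervals cover counting error or the spread between libraries only.

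Replicates differed by more than sampling noise (chi-square per degree of freedom 4.48 to 9.40). Nothing states that they come from separate animals, so p-values measure the spread between these libraries. On simulated counts (12227 genes) the test recovered 54.7% of 95 genes changed 2-fold and 91.0% of 100 changed 4-fold, and 6.54% of its calls were unchanged genes.

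The members and lists were chosen with earlier results of these data known. Genes named are the members, machinery genes with an unadjusted p under 0.05 plus Ctss, Ifi30, Cd80 and Cd40, markers at 0 in all libraries or past the threshold, and the 5 genes outside the lists most correlated with the class II mean. Results of some listed genes are not reported here. Other machinery and marker genes were named for their role or values after these were seen. Beside the lists described in the report, 10 adipose progenitor and mesothelial markers were tested with 0 calls in edgeR's test and 0 at an unadjusted p under 0.05. Alternatives were RLE factors, library totals, no filter, at least 80 counts in total, limma-voom (limma 3.58.1), DESeq2 1.42.0, the replicate block, fits without each library, other prior and added counts, and, chosen after seeing the data, unrounded counts and H2-DMb1 summed with H2-DMb2.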

Additional observations from a re-analysis of the deposited data

Results flagged for a closer look

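Dixon's rule was applied to each group of 4 libraries, for the members and the other named genes, the ratios and the library totals. It marks an outermost library whose gap to the nearest of its 3 companions is a large share of the range of all 4. Of 52 groups 1 held a marked library; chance marks about 1 in 20 groups, or 2.6. It belonged to Mrc2, a gene named for its likeness to the class II genes. Its highest knockout library, replicate 4, was at 54.4 CPM, against 8.24 to 14.1 CPM in the other knockout libraries. The same library was the highest for 7 of the 9 class II members and was marked for none of them.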

How the results depend on the processing

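No member passed the threshold under any of the 17 alternatives, in which the smallest adjusted p was 0.469, and Ctss was the only machinery gene past it in each. The number of all genes past the threshold, 21, was 58 without the low-count filter (37 higher, 21 lower), 55 with DESeq2 (28 higher, 27 lower), 6 with the replicate block (4 higher, 2 lower, 5 shared) and 4 to 43 when 1 library was left out (4 without control replicate 2, 43 without control replicate 4). Library totals in place of TMM moved the median of all genes to 0.07 and the share of genes above 0 from 49.7% to 61.7%. With the replicate block 0 members passed and 1 had an unadjusted p under 0.05, and Cd68, at a log2 fold change of 1.16, had an edgeR adjusted p of 0.0962. RLE factors, library totals and the fit without the low-count filter also each gave 1 member with an unadjusted p under 0.05 in edgeR's test. No label says that same-numbered libraries are paired. Their deviations correlated at 0.25, -0.06, -0.01 and -0.24, which does not decide whether they are.

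Several directions turned. With limma-voom H2-Aa was at -0.0036, H2-Ab1 at -0.049 and Rhbdf1 at -0.046. Rhbdf1 was at -0.013 with the replicate block, and Xpnpep1 at 0.067 with library totals. When 1 library was left out, log2 fold changes ranged from -0.084 to 0.233 for H2-Aa, -0.139 to 0.233 for H2-Ab1, -0.098 to 0.176 for H2-Eb1, -0.076 to 0.366 for H2-DMa, -0.017 to 0.339 for Cd86 and -0.210 to 0.610 for Cd83. For the genes most like them the ranges were -0.437 to 0.903 (Mrc2), -0.064 to 0.120 (Trnt1), -0.278 to 0.498 (Popdc2), -0.066 to 0.044 (Xpnpep1) and -0.120 to 0.077 (Rhbdf1). Log2 differences of ratios ranged from -0.0035 to 0.067 (H2-Aa to H2-Ab1), -0.098 to 0.129 (H2-Eb1 to H2-Ab1), -0.048 to 0.283 (H2-DMb1 to H2-DMa), -0.093 to 0.251 (H2-DMa to H2-Ab1) and -0.128 to 0.362 (Cd86 to H2-Ab1). The cause of these changes was not tested.

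Cd86, Cd83 and Ciita had the lowest counts of the members, 8 to 72 per library, and counting error was not separated from the spread between libraries. The interval of Cd83 spans 0.640 to 2.52-fold.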
